A study of Mus musculus with 3 samples.

Results

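Aminoacyl tRNA synthetases are the enzymes that join each amino acid to its own tRNA before translation. The genes described here are the 36 mouse synthetase genes chosen by symbol from a list of these enzymes, 20 for enzymes of the cytosol and 16 whose symbols end in 2 and whose enzymes work in mitochondria. All 36 were found among the 16977 genes of the deposited table, and none was absent. They were set out by compartment and compared between neural stem cells with lowered Phf2 and control cells.

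The libraries were made from total RNA, depleted of ribosomal RNA, of cultured neural stem cells of C57BL/6J mouse embryos at E12.5, grown with EGF and FGF. The shPHF2 cells had been infected with a lentivirus carrying a short hairpin RNA against PHF2 (2 libraries, described by the series as biological replicates), and the shControl cells with a lentivirus carrying a control hairpin (1 library). PHF2 is a PHD-finger protein of a family of histone demethylases that act on methylated lysines of histone H3. The hairpin sequences, how many hairpins were used and how many embryos gave the cells are not stated in the labels.

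Cytosolic synthetases supply the ribosomes that translate nuclear messenger RNAs, and several of them sit together in a large particle, the multisynthetase complex. Mitochondria use a separate set of nuclear-encoded enzymes for the proteins of their own genome. When a tRNA stays uncharged, the kinase GCN2 (Eif2ak4) phosphorylates the translation factor eIF2, and the transcription factor ATF4 then activates genes of amino acid supply, among them many cytosolic synthetase genes. Dividing progenitors such as neural stem cells make protein at a high rate and therefore draw on this machinery.

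Values are normalised read counts, which the authors obtained by dividing reads per gene by a size factor for the library. Over all genes they summed to 30989386 and 31711269 in the shPHF2 libraries and 32792258 in shControl, and the 36 synthetase genes took 0.286% and 0.274% of these sums in shPHF2 and 0.369% in shControl. Phf2 itself had 985 and 714 normalised counts in shPHF2 cells, against 2593 in shControl cells, so that 38.0% and 27.5% of the control level remained (log2 fold change -1.63, SE 0.24, limma, adjusted p = 0.0085). Of the 10 neural stem cell markers, all were measured above the filter, and their counts summed to 345110 and 388761 in shPHF2 libraries and 331508 in shControl. Both shPHF2 libraries lay below the control for 4 of the 10 and above it for 4, with a median log2 fold change of -0.07. Sox2 was the 1 of the 10 past the threshold, with 10114 and 8819 counts in shPHF2 against 5893 in shControl (log2 fold change 0.68, SE 0.19, limma, adjusted p = 0.048). Summed markers of neurons (7 genes) came to 43216 and 46395 in shPHF2 against 64115 in shControl, mostly Map2. Of those 7 genes, 3 had both shPHF2 libraries below the control, 1 had both above it and 3 overlapped. Their median log2 fold change was 0.33, but -0.11 for replicate 1 alone and -0.25 for replicate 2 alone. The shPHF2 libraries differed by a median of 1.16 on the log2 scale in these genes, and 0 passed the test. Markers of astrocytes (7 genes) summed to 9397 and 9988 in shPHF2 against 9364 in shControl, with Aqp4 at 0 in shControl. Most of the astrocyte sum came from Sox9 and Gja1, while 5 of the 7 genes had both shPHF2 libraries above the control, with a median log2 fold change of 1.42 over the list. S100b, 1 of these 5, passed the test, with 1094 and 850 counts in shPHF2 against 331 in shControl (1.54, SE 0.25, limma, adjusted p = 0.011). In the astrocyte list the shPHF2 libraries differed by a median of 0.71 on the log2 scale. The change was larger than the gene's own gap for 3 of the 7. The oligodendrocyte lineage list (7 genes) summed to 64832 and 84165 counts in shPHF2 against 69613 in shControl, nearly all Olig1 and Olig2. Of its 6 genes above the filter, 5 had both shPHF2 libraries below the control, with a median log2 fold change of -0.47, and 0 passed the test. Lists for microglia (4 genes), endothelium (6 genes) and fibroblasts (5 genes) summed to 347 or less in every library, with Aif1 and Tmem119 at 0 in shControl and Cldn5 at 0 in both shPHF2 libraries. Over all genes tested, both shPHF2 libraries lay below the control for 41.8% and above it for 41.4%. The test called 7.11% of all genes lower and 7.22% higher. The part of these cell markers in the synthetase values was not tested.

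With 3 libraries an exact permutation test of a single gene cannot go below p = 0.333, so genes were called from 1 limma fit on the log2(count + 1) scale over 14148 genes, those whose mean count was 10 or more, at a p under 0.05 after Benjamini-Hochberg adjustment. A fold change is shPHF2 over shControl on that scale. The single control has no measured spread of its own and was assumed to vary like the shPHF2 libraries. In bulk RNA, fewer cells of a type and less RNA per cell cannot be told apart.

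Most cytosolic synthetase mRNAs had lower counts in both shPHF2 libraries than in the control, by similar and moderate amounts, and few passed the test. All 20 passed the filter. Both shPHF2 libraries lay below the control for 18 of them, above it for 1 (Qars) and on either side of it for 1 (Wars), while over all genes tested 41.8% had both libraries below and 41.4% both above. The genes that passed the test, 3 in all, were Vars, Mars and Eprs. All 3 were lower and 0 were higher. That is 15.0% of the list, beside 7.11% of all genes tested that were lower and 7.22% that were higher. The median log2 fold change was -0.47, with quartiles of -0.56 and -0.40, beside a median of -0.01 over all genes tested. Taken 1 library at a time, the cytosolic median was -0.47 for replicate 1 and -0.45 for replicate 2. Counts summed over the 20 genes were 74501 and 72935 in shPHF2 libraries and 102373 in shControl, so 72.8% and 71.2% of the control sum.

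Vars, which encodes the valine enzyme, had the most negative cytosolic fold change. It had 3506 and 3542 normalised counts in shPHF2 cells, against 7804 in shControl cells. The shPHF2 libraries were nearly equal and both were far below the control, with a mean of 3524 ± 25.8 (SD, n = 2). The log2 fold change was -1.15 (SE 0.17, 95% interval -1.54 to -0.75, limma, adjusted p = 0.0087). Vars is located on chromosome 17 from 35000987 to 35016322, plus strand (GENCODE M21, GRCm38).

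Mars, for the methionine enzyme, which also charges the initiator tRNA, had 2511 and 2318 normalised counts in shPHF2 cells, against 3916 in shControl cells. Its shPHF2 mean was 2415 ± 136 (SD, n = 2), and the log2 fold change was -0.70 (SE 0.18, limma, adjusted p = 0.037). Mars is located on chromosome 10 from 127296221 to 127311786, minus strand, and shares 68 exon bases with Ddit3 on the other strand. Ddit3, a stress-induced transcription factor, had 188 and 178 counts in shPHF2 and 204 in shControl.

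Eprs encodes a fused enzyme that charges both glutamate and proline tRNAs. It had 8148 and 7529 normalised counts in shPHF2 cells, against 12486 in shControl cells, a shPHF2 mean of 7839 ± 437 (SD, n = 2). Both libraries were below the control, at a log2 fold change of -0.67 with an SE of 0.18, close to the threshold (limma, adjusted p = 0.047). Eprs is located on chromosome 1 from 185363044 to 185428360, plus strand.

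**Figure D1:**
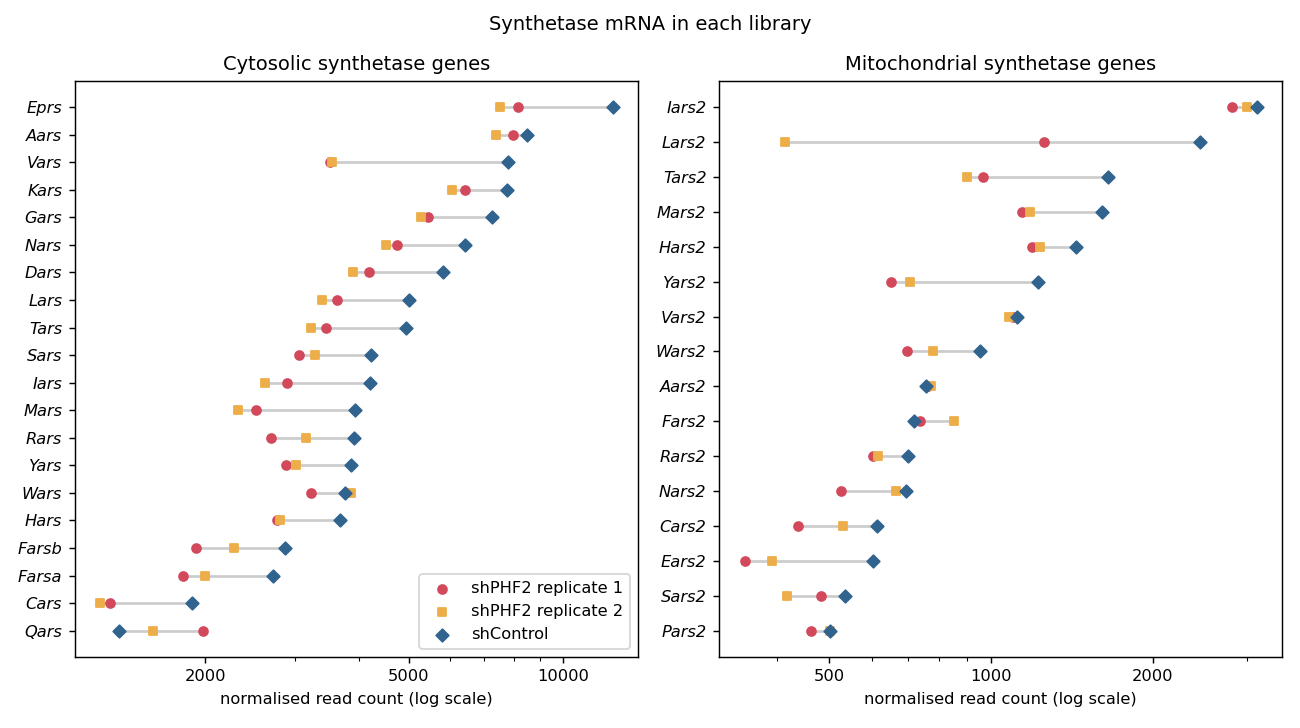
Normalised read count (horizontal axis, log scale) of each cytosolic gene (left) and mitochondrial gene (right) in each library, with circles for shPHF2 replicate 1, squares for shPHF2 replicate 2 and diamonds for shControl, ordered by shControl. The diamond lies to the right of both shPHF2 symbols for 18 of 20 cytosolic and 13 of 16 mitochondrial genes, and the Lars2 libraries, at 1254 and 412 in shPHF2 against 2444 in shControl, are the most spread.

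Another 6 cytosolic genes had fold changes of at least 0.5 in size without passing the test. Iars, for isoleucine, had 2887 and 2622 counts in shPHF2 against 4189 in shControl (log2 fold change -0.61, limma, adjusted p = 0.058). Tars, for threonine, had 3447 and 3213 in shPHF2 against 4932 in shControl (-0.57, limma, adjusted p = 0.066). Cars, for cysteine, had 1303 and 1250 in shPHF2 against 1884 in shControl (-0.56, limma, adjusted p = 0.084). In each of these genes both shPHF2 libraries lay below the control, and the gap to it was larger than the gap between replicates. Dars, for aspartate, had 4171 and 3881 counts in shPHF2 against 5819 in shControl (log2 fold change -0.53, limma, adjusted p = 0.079). Lars, for leucine, had 3621 and 3381 in shPHF2 against 5012 in shControl (-0.52, limma, adjusted p = 0.084). Farsa, the catalytic subunit for phenylalanine, had 1810 and 2000 in shPHF2 against 2710 in shControl (-0.51, limma, adjusted p = 0.099). The order of the groups was the same in these genes.

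Most uncalled cytosolic genes formed a narrow band. Among the 17, 14 genes, these included, lay in a range set after the values were seen, with log2 fold changes between -0.61 and -0.32, at 65.8% to 80.3% of the control, with adjusted p from 0.058 to 0.26 (limma). For 14 of all 20 the unadjusted 95% interval lay below 0, and it lay above 0 for none. Over all genes tested, 15.4% were lower at an unadjusted p under 0.05. The change was larger than the gap between the shPHF2 libraries for 19 of 20 genes, beside 9618 of the 14148 genes tested. That gap had a median of 0.10 on the log2 scale in the cytosolic genes, beside 0.21 over all genes tested.

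Aars, for alanine, and Kars, for lysine in both cytosol and mitochondria, were with Eprs the 3 cytosolic genes with the highest mean counts. Aars had 7983 and 7406 counts in shPHF2 against 8512 in shControl (log2 fold change -0.15, 95% interval -0.56 to 0.27). Kars had 6423 and 6070 counts in shPHF2 against 7779 in shControl (log2 fold change -0.32, 95% interval -0.72 to 0.09). Neither passed the test. Aars shares 1326 exon bases with Exosc6 on the same strand, and Exosc6, a subunit of the RNA exosome, had 811 and 869 counts in shPHF2 against 1327 in shControl, so reads of this stretch are uncertain.

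Like Aars, Qars and Wars stood above the band, and both were picked out after their values were seen. Qars, for glutamine, had 1981 and 1585 counts in shPHF2 against 1359 in shControl, both above the control (log2 fold change 0.38, 95% interval -0.10 to 0.86, limma, adjusted p = 0.25). Wars, for tryptophan, had 3219 and 3856 counts in shPHF2 against 3747 in shControl, so that the groups overlapped (-0.09, limma, adjusted p = 0.79).

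Most mitochondrial synthetase mRNAs also had lower counts in both shPHF2 libraries than in the control. All 16 passed the filter, 2 were lower (Yars2 and Tars2, beside 7.11% of all genes tested) and 0 were higher. Both shPHF2 libraries lay below the control for 13 genes, above it for 2 (Aars2 and Fars2) and on either side of it for 1 (Pars2), beside the 41.8% and 41.4% of all genes tested. The median log2 fold change was -0.25, with -0.34 for replicate 1 alone and -0.21 for replicate 2 alone. After quantile normalization the mitochondrial median was -0.32 and the cytosolic one -0.36, so the gap between the compartments depended on the scaling, and their difference was not tested. Counts summed over the 16 genes were 14154 and 14036 in shPHF2 libraries and 18673 in shControl, or 75.8% and 75.2% of the control sum. The unadjusted 95% interval lay below 0 for 5 of the 16. Of all genes tested, 15.4% were lower at an unadjusted p under 0.05 (limma).

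Yars2, the mitochondrial tyrosine enzyme, had 650 and 707 normalised counts in shPHF2 cells, against 1225 in shControl cells, a shPHF2 mean of 678 ± 39.8 (SD, n = 2). The log2 fold change was -0.85 (SE 0.22, limma, adjusted p = 0.037). Tars2, the mitochondrial threonine enzyme, had 964 and 902 counts in shPHF2 cells, against 1649 in shControl cells, a mean of 933 ± 43.8 (SD, n = 2). Its log2 fold change was -0.82 (SE 0.20, limma, adjusted p = 0.033). In both genes the shPHF2 libraries were close to each other and well below the control. Yars2 lies on chromosome 16 from 16302965 to 16309640, plus strand, and Tars2 on chromosome 3 from 95739976 to 95760206, minus strand.

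Lars2, the mitochondrial leucine enzyme, had the most negative fold change of all 36 genes but did not pass the test. It had 1254 and 412 counts in shPHF2 cells, against 2444 in shControl cells. Both libraries were below the control but differed from each other by 1.60 on the log2 scale, the widest replicate gap of the 36. The log2 fold change was -1.76 (SE 0.53, 95% interval -2.99 to -0.54, limma, adjusted p = 0.064), with -0.96 for replicate 1 and -2.56 for replicate 2. Ears2, the mitochondrial glutamate enzyme, had 348 and 391 counts in shPHF2 against 602 in shControl (log2 fold change -0.71, limma, adjusted p = 0.11).

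Iars2, Lars2 and Mars2 had the highest mean counts of the mitochondrial genes. Iars2 had 2804 and 2995 counts in shPHF2 against 3124 in shControl (log2 fold change -0.11), and Mars2 had 1141 and 1183 in shPHF2 against 1606 in shControl (-0.47, limma, adjusted p = 0.14). Of the exon bases of Iars2, 24.2% are shared with a gene on the other strand, chiefly Rab3gap2, which had 3437 and 2867 counts in shPHF2 against 2936 in shControl. Whether counting used the strand is not stated, so the Iars2 level is uncertain. Of the 36 genes, 7 share more than 5% of their exon bases with another gene: Aars, Farsb, Hars, Cars2, Fars2, Iars2 and Vars2. The genes with both shPHF2 libraries above the control were named after their values were seen. They were Aars2, with 762 and 774 counts in shPHF2 against 756 in shControl, and Fars2, with 736 and 851 in shPHF2 against 720 in shControl. Pars2, whose groups overlapped, had 461 and 501.6 counts in shPHF2 against 501.4 in shControl.

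**Figure D2:**
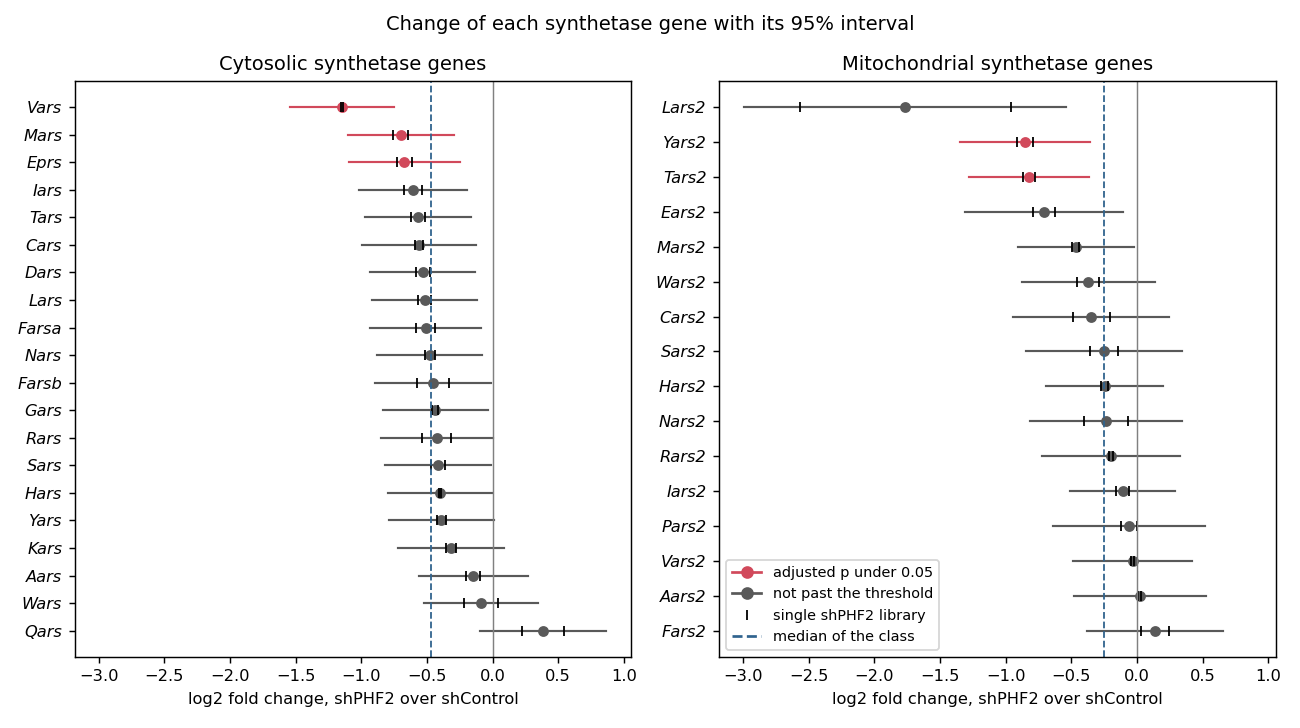
log2 fold change of shPHF2 over shControl (horizontal axis) for each cytosolic gene (left) and mitochondrial gene (right), with the mean as a dot, its unadjusted 95% interval from limma as a line, each shPHF2 library as a tick and the median of the class as a dashed line. The dots of 14 uncalled cytosolic genes lie between -0.61 and -0.32, and the 5 genes past the threshold, in red, are Vars, Mars, Eprs, Yars2 and Tars2.

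Over both compartments, 5 of 36 genes were lower (13.9%, beside 7.11% of all genes tested) and 0 were higher. Both shPHF2 libraries lay below the control for 31 of the 36, beside 41.8% of all genes tested. The authors' deposited table, which comes from DESeq2, had the same 5 genes under an adjusted p of 0.05, beside 7.96% of its genes lower and 8.04% higher. In the authors' deposited table Vars had an adjusted p of 2.62e-05, Eprs 0.022, Tars2 0.028, Mars 0.031 and Yars2 0.036, while Lars2 had a log2 fold change of -1.55 with an adjusted p of 0.468. The calls rest on the settings of the fit: without the mean-variance trend, without the filter, or after quantile normalization, limma called 0 of the 36. In that order, 6, 17 and 10 of them had an unadjusted p under 0.05 (limma). Over all genes in the same settings it was 3300 of 14148, 3893 of 16977 and 3700 of 14148. When libraries were scaled to equal gene totals, which moved the median of all genes to 0.06, Vars alone was called. In that setting 690 of the 14152 genes tested were lower and 1002 were higher. Directions moved less than calls. Cytosolic genes with a fold change below 0 numbered 19 of 20 in the fit as given, 18 after quantile normalization and 19 after equal totals. Mitochondrial ones numbered 14 of 16, 15 and 12. Over all genes tested, 50.3% were below 0 in the fit as given. That share was not counted in the other 2 settings, where the median of all genes was -0.02 and 0.06.

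For 13 amino acids the list holds 1 cytosolic and 1 mitochondrial gene. Levels between genes were compared as normalised counts per kb of the longest principal transcript (GENCODE M21). In shControl the cytosolic mRNA was the more abundant per kb in all 13 pairs, by 1.66 to 12.8 times with a median of 4.28. The class medians per kb were 990 and 1108 in shPHF2 libraries against 1482 in shControl for cytosolic genes, and 253 and 238 in shPHF2 against 308 in shControl for mitochondrial genes. By level per kb in shControl, the cytosolic genes ran from Kars at 3874 to Qars at 485, and the mitochondrial genes from Yars2 at 778 to Mars2 at 142. The principal transcript of Mars2, at 11.3 kb, is the longest of all members, so Mars2 was lowest per kb though among the highest mitochondrial genes by mean count.

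The cytosolic fold change was further below 0 than the mitochondrial one in 9 of the 13 pairs. The largest such gap was in the valine pair, with -1.15 for Vars and -0.03 for Vars2, which had 1099 and 1081 counts in shPHF2 against 1115 in shControl. The mitochondrial member was further below 0 for leucine, threonine, tryptophan and tyrosine, and for threonine and tyrosine it was the mitochondrial gene that was called. These differences between genes were not tested.

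**Figure D3:**
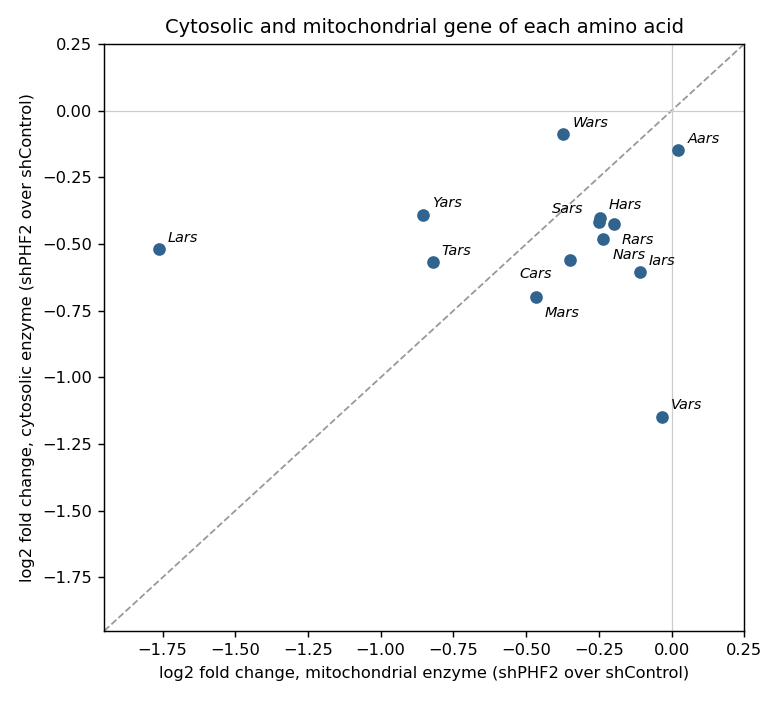
log2 fold change of shPHF2 over shControl of the mitochondrial gene (horizontal axis) and the cytosolic gene (vertical axis) for 13 amino acids, each point named by its cytosolic gene. Points under the dashed line of equality, 9 of 13, have the cytosolic gene further below 0, with Vars at -1.15 against -0.03 for Vars2, while Lars lies far to the left through Lars2 at -1.76.

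Genes past the threshold lay both within the multisynthetase complex and outside it. Of its 8 enzyme genes (Dars, Eprs, Iars, Kars, Lars, Mars, Qars and Rars), 2 were lower, with a median log2 fold change of -0.53, and of the 12 cytosolic genes outside it, 1 was lower, with a median of -0.45. Over all genes tested 7.11% were lower, and the split was not tested. The complex also has 3 proteins that hold the enzymes together. Eef1e1, one of these scaffolds, was lower, with 1006 and 1279 counts in shPHF2 against 2656 in shControl (log2 fold change -1.23, SE 0.21, limma, adjusted p = 0.013). The scaffold Aimp2 had 999 and 1096 counts in shPHF2 against 1523 in shControl (-0.54, limma, adjusted p = 0.11). Aimp1 had 1988 and 2038 in shPHF2 against 2021 in shControl, so its groups overlapped.

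Synthetases fall into class I and class II by the fold of their catalytic domain. Of the 9 cytosolic class I genes 2 were lower (median log2 fold change -0.52), and of the 10 class II genes 0 were lower (median -0.45). All 10 of the class II genes had both shPHF2 libraries below the control, beside 41.8% of all genes tested. Among mitochondrial genes, 1 of 9 in class I (median -0.37) and 1 of 7 in class II (median -0.23) were lower. Eprs, which holds a catalytic domain of each class, was left out of this split. The counts of lower genes stand beside 7.11% of all genes tested that were lower, several are near that share, and no difference between the classes was tested.

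Of the cytosolic genes, 12 are known as ATF4 targets: Aars, Cars, Eprs, Gars, Iars, Lars, Mars, Nars, Sars, Tars, Wars and Yars. Of these 2 were lower, with a median log2 fold change of -0.50, and of the other 8 cytosolic genes 1 was lower, with a median of -0.44, beside 7.11% of all genes tested that were lower. ATF4 and its relatives bind the sequence TGATGNAA, the core of the C/EBP-ATF response element. Promoter windows from 250 bases before to 50 bases after the transcription start, from RefSeq on GRCm38.p6, were matched for 27 of the 36 genes, 13 cytosolic and 14 mitochondrial. Cars, Hars, Lars, Nars, Rars, Vars, Wars, Hars2 and Pars2 had no match. On either strand, TGATGNAA was found in 5 of the 13 cytosolic windows and in 0 of the 14 mitochondrial ones, beside 4.06% of 27025 windows of the same length over all genes. The 5 windows are printed because they hold the motif, 5′ to 3′ along the gene, with the motif or its reverse complement in capitals. They are Aars at chr8:111033592-111033891 (plus strand), Gars at chr6:55037751-55038050 (plus strand), Iars at chr13:49681880-49682179 (plus strand), Tars at chr15:11399609-11399908 (minus strand) and Yars at chr4:129189653-129189952 (plus strand).
Aars: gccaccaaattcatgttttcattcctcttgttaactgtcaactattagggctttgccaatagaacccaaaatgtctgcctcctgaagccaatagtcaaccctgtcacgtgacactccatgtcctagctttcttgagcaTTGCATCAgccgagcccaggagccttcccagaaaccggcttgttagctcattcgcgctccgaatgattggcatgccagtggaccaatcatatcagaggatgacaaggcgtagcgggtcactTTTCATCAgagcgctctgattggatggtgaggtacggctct
Gars: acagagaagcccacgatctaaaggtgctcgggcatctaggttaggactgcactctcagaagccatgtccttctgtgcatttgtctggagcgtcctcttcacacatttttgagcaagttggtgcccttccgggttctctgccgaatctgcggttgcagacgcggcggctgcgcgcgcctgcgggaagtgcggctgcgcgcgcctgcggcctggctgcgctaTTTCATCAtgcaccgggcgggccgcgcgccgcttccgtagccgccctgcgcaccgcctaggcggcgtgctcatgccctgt
Iars: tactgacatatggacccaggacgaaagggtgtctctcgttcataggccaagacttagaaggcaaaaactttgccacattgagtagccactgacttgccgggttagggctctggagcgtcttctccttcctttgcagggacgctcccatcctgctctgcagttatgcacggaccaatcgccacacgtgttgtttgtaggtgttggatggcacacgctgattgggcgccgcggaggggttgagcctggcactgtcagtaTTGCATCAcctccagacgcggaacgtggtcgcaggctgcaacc
Tars: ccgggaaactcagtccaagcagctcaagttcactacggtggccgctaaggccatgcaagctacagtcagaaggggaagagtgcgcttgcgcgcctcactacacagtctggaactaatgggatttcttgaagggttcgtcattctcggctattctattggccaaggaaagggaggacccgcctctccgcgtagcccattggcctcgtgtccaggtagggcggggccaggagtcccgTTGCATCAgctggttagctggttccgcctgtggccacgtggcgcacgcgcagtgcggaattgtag
Yars: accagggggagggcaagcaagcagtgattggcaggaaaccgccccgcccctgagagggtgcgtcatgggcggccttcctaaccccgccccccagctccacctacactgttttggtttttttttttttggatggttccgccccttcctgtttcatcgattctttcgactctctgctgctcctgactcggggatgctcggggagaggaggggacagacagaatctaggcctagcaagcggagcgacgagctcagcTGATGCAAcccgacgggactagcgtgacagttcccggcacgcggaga

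All 5 genes with the motif are among the ATF4-linked genes, of which 8 had a window. In Aars the motif began 112 bases before and 9 bases after the first transcribed base, in Gars 30 before, in Iars 7 after, in Tars 15 before and in Yars 3 after. The form TGATGCAA was in 4 of the 13 cytosolic windows (Aars, Iars, Tars and Yars), beside 0.929% of all windows. The E-box CACGTG, bound by MYC and related factors, was in 4 of 13 cytosolic windows (Aars, Farsb, Iars and Tars) and in 1 of 14 mitochondrial ones (Ears2), beside 7.24% of all windows. It overlapped no TGATGNAA match. The cytosolic genes with TGATGNAA had a median log2 fold change of -0.44 (5 genes, -0.61 to -0.15), and the matched cytosolic genes without it had -0.48 (8 genes, -0.70 to 0.38). The fold changes of these groups covered overlapping ranges.

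Among other genes of the ATF4 program, the shares past the test were near those over all genes tested. Atf4 itself had 7044 and 7344 counts in shPHF2 against 10699 in shControl (log2 fold change -0.57, SE 0.18, limma, adjusted p = 0.070). In a list of 28 ATF4 targets and partners other than synthetases, Atf4 among them, 3 were lower (10.7%, beside 7.11% of all genes tested) and 2 were higher (7.14%, beside 7.22%), with a median of -0.28. Mthfd2, a mitochondrial enzyme of folate metabolism, was lower, with 570 and 552 counts in shPHF2 against 2996 in shControl (-2.41, limma, adjusted p = 0.0036). Shmt2, which makes glycine from serine in mitochondria, had 2091 and 1912 in shPHF2 against 4861 in shControl (-1.28, limma, adjusted p = 0.0071). Slc38a2, a transporter of neutral amino acids, had 4675 and 4267 in shPHF2 against 8030 in shControl (-0.85, limma, adjusted p = 0.021). In all 3 genes both shPHF2 libraries were far below the control and close to each other. The remaining called genes were higher in shPHF2. Slc7a11, the cystine transporter, had 4930 and 2230 counts in shPHF2 against 881 in shControl (1.91, limma, adjusted p = 0.021), and Ddit4, an inhibitor of mTORC1 signalling, had 2527 and 2992 in shPHF2 against 1132 in shControl (1.28, limma, adjusted p = 0.0089).

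Upstream of ATF4, in the list of eIF2 kinases and uncharged tRNA sensing, 1 of 9 genes tested was lower (11.1%, beside 7.11% of all genes tested) and 0 were higher (median log2 fold change -0.17). It was Eif2s1, the alpha subunit of eIF2, with 4666 and 5190 counts in shPHF2 against 8356 in shControl (-0.76, limma, adjusted p = 0.030). Eif2ak4, named for its role as the sensor of uncharged tRNA, had 1039 and 837 counts in shPHF2 against 1049 in shControl (-0.17).

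For genes that make and modify the tRNAs themselves, the median was close to that of the cytosolic synthetases. Of 31 tested genes for tRNA processing, modification and export, 5 were lower (16.1%, beside 7.11% of all genes tested) and 0 were higher. Both shPHF2 libraries lay below the control for 28 of them, beside 41.8% of all genes tested, with a median log2 fold change of -0.45. Trmt61a had 887 and 1074 counts in shPHF2 against 2140 in shControl (-1.13, limma, adjusted p = 0.015), and its partner Trmt6 had 1221 and 1151 in shPHF2 against 2211 in shControl (-0.90, limma, adjusted p = 0.022). Together they methylate an adenosine of the tRNA body. Nsun2, a cytosine methyltransferase of tRNAs, had 3863 and 3956 in shPHF2 against 8147 in shControl (-1.06, limma, adjusted p = 0.011). Pop1, a subunit of the RNase P that trims the 5′ end of tRNAs, had 1626 and 1584 in shPHF2 against 2984 in shControl (-0.89, limma, adjusted p = 0.019). Pus1, a pseudouridine synthase, had 823 and 758 in shPHF2 against 1439 in shControl (-0.86, limma, adjusted p = 0.032).

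The medians of lists that act on charged tRNA lay closer to 0. Of 11 tested genes for other charging and proofreading factors, 1 was lower (9.09%, beside 7.11% of all genes tested; median log2 fold change -0.08). It was Aarsd1, an editing protein that removes serine from alanine tRNA, with 1060 and 834 counts in shPHF2 against 1685 in shControl (-0.84, limma, adjusted p = 0.043). Of 11 translation elongation factors, 0 were called, beside 7.11% of all genes tested that were lower and 7.22% that were higher. Their median log2 fold change was -0.23, within a range of -0.49 to 1.90. Both shPHF2 libraries lay below the control for 7 of these 11 and above it for 2, beside 41.8% and 41.4% of all genes tested. The elongation factors with the highest means were Eef1a1, which delivers charged tRNA to the ribosome, with 128613 and 141471 counts in shPHF2 against 163728 in shControl, and Eef2, with 79100 and 87319 in shPHF2 against 90300 in shControl. Whether these lists differ from the synthetases was not tested.

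**Figure D4:**
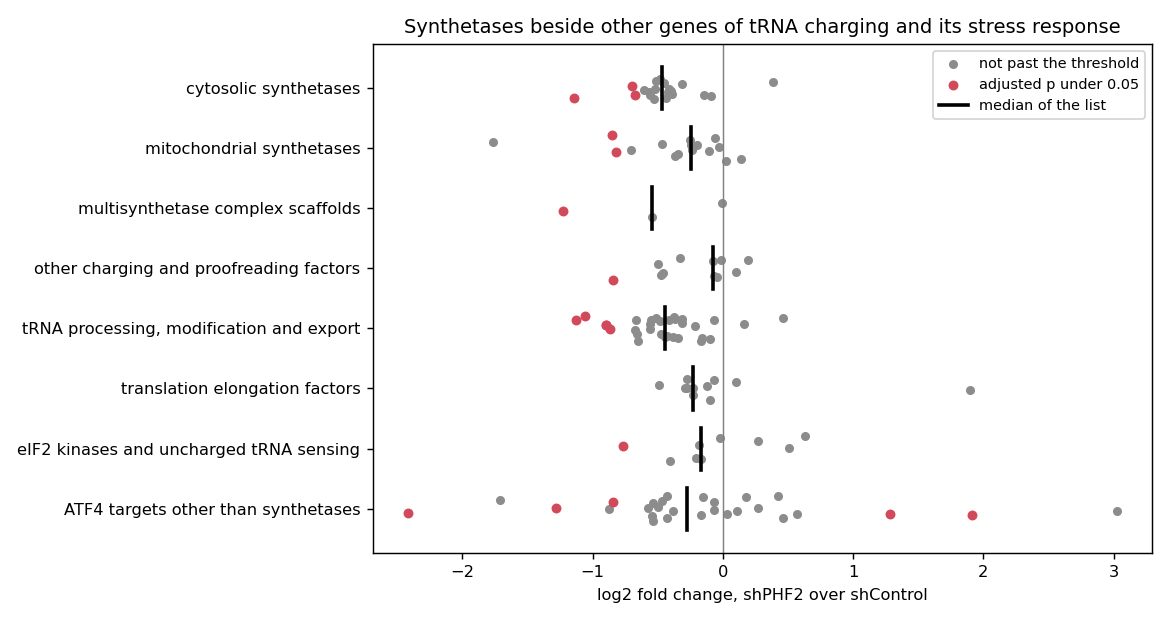
log2 fold change of shPHF2 over shControl (horizontal axis) of each tested gene (dots, red where the adjusted p was under 0.05) in the synthetase classes and in lists of related genes, with the median of each list as a bar. The medians are -0.47 for cytosolic synthetases, -0.25 for mitochondrial ones, -0.45 for tRNA processing genes and -0.08 for other charging factors, and red dots above 0 appear in the ATF4 list (Ddit4 and Slc7a11).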

How the data were processed

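RNA-seq libraries of 2 shPHF2 samples and 1 shControl sample were used, in 1 deposited table. The tools named are HISAT2, HTSeq and DESeq2, with build mm10, per the submitters' processing notes; versions and strand setting were not given in the sources used here. The signal in the table is the authors' gene count divided by a size factor, per the file headers, and every value was a whole multiple of its column's smallest value within 0.001. The authors also deposited, per the file headers, log2 fold changes and their standard errors, the Wald score, and p-values before and after adjustment; the adjusted value was empty for 4280 genes. The 4 rows that name no gene were kept out: of shPHF2 replicates 1 and 2 and shControl they held 44.0%, 38.7% and 42.7% on no feature, 15.9%, 20.5% and 17.0% of low alignment quality, 1.22%, 1.78% and 1.18% unaligned and 0.430%, 0.434% and 0.461% ambiguous. There were 0 unused library columns.

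Values were tested with limma 3.58.1 in R 4.3.3 (log2 of value + 1, mean of at least 10, mean-variance trend, two-sided, Benjamini-Hochberg over 14148 genes, threshold 0.05), with 1 residual and 6.94 prior degrees of freedom. In 20 simulated data sets of these genes with 200 changed, it recovered 25.2% of 2-fold and 72.9% of 4-fold changes, and 16.6% of calls were false. Tables and figures were made with Python 3.11.15, pandas 2.3.3 and matplotlib 3.10.9. The p-values rest on the spread of each gene between the shPHF2 samples (1 degree of freedom), joined with a trend of that spread over all genes tested (6.94 degrees). No spread between control samples enters them.

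The members and the 21 lists were chosen with earlier results of these data known, so their directions are not independent evidence. Given in every library are called members and uncalled ones with a log2 fold change of at least 0.5 in size, the 3 members of highest mean count per class, and in other lists up to 4 called genes of largest change, all where 5 or fewer were called, or else the 2 of highest mean. Genes added to these are said to be picked after their values were seen, and Atf4, Eif2ak4, Aimp1, Aimp2, Vars2 and genes that overlap a member were added likewise. Of the members, Iars shares 7.15% of its 50-base stretches with annotated transcripts of other genes (GENCODE M21), and the others at most 1.42%. Genes that overlap a member were left out of this comparison, and sequence outside annotated transcripts was not searched. Alternatives were other pseudocounts, filters and normalizations, no trend and each shPHF2 library left out.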

Additional observations from a re-analysis of the deposited data

How the results depend on the processing

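Without the filter on low values, without the mean-variance trend and after quantile normalization, limma called 0 genes lower and 0 higher (3893, 3300 and 3700 at an unadjusted p under 0.05), hence 0 cytosolic and 0 mitochondrial synthetases. Scaling to equal totals over genes, chosen after seeing the data, left 1 cytosolic and 0 mitochondrial genes lower, beside 690 of 14152 genes tested. The cause was not tested. The cytosolic median was -0.36 after quantile normalization and -0.40 with equal totals, and the mitochondrial one -0.32 and -0.18, so the gap between the compartments depends on the scaling. With each shPHF2 library left out in turn it ranged from -0.47 to -0.45, and the mitochondrial median from -0.34 to -0.21. Fold changes near 0 turned sign: Wars to 0.043 after quantile normalization and, with 1 library left out, from -0.219 to 0.041, Aars2 to -0.0013 after quantile normalization, Pars2 to 0.0047 with equal totals and, with 1 library left out, from -0.121 to 0.00049, and Vars2 to 0.032 with equal totals. Pseudocounts of 0.5 and 5 and a mean of at least 50 kept the same 5 calls. Over the alternatives with a test, adjusted p ran from 0.0074 to 0.15 for Vars, 0.043 to 0.20 for Eprs, 0.034 to 0.20 for Mars, 0.027 to 0.17 for Tars2 and 0.029 to 0.17 for Yars2. The planned edgeR (with either normalization) and DESeq2 tests on recovered reads were not run. Values of all columns were whole multiples of their smallest value within 0.001. A checking rule still refused whole reads as recovered for shControl, because its smallest step, 0.997, lay close to 1. No paired analysis was possible because shControl has 1 library. The single control limits all values.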
